A study of Mus musculus with 2 samples.

Results

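Small leucine-rich proteoglycans are secreted matrix proteins that bind collagen fibrils, and 8 of their genes were followed across the cells of the mouse incisor: Dcn, Bgn, Aspn, Lum, Fmod, Omd, Prelp and Ogn. They were chosen by gene symbol from the 19626 genes of the deposited table. The study sequenced single cells of incisor tissue at postnatal day 20 with 10x Genomics 3′ droplets. One library came from a Memo1-mutant mouse (genotype Memo1;K14CRE, in which Cre recombinase runs from the keratin 14 promoter of epithelium) and one from a control mouse whose exact genotype the labels do not give. The tissue around the cervical loop was taken with both its epithelium and its mesenchyme, and the Cre driver is not one of mesenchyme. With 1 mouse and 1 library per group there was no spread between mice to test against, so "higher" and "lower" describe these 2 libraries, and every interval is a 95% exact interval of counting error only. A ratio is always mutant over control.

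The proteins of this family share a horseshoe-shaped core of leucine-rich repeats, and many carry chains of chondroitin, dermatan or keratan sulfate. By sequence Dcn, Bgn and Aspn belong to class I, Lum, Fmod, Omd and Prelp to class II, and Ogn to class III. They set the width and spacing of collagen fibrils, and several also bind TGF-β or mineral. In teeth they are known from predentin, pulp, dental follicle and periodontal ligament.

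There were 13820 mutant and 9708 control cells, with totals of 120862385 and 79518656 UMIs, each UMI standing for 1 captured molecule. The median cell had 6798 UMIs in the mutant library and 2643 in the control library. The Memo1 transcript itself was at 17.7 CPM in the mutant library and 19 CPM in the control library, CPM being counts divided by the total of the same cells and scaled alike for all. A 3′ tag does not check the deletion if it lies outside the deleted part, and where it lies was not examined. These values are over all cells, of which 2303 of 13820 mutant and 2981 of 9708 control cells were of the ameloblast lineage. The libraries also differed in transcripts tied to sex, with Xist at 1409 CPM in the mutant library and 0.616 CPM in the control library, and 16 against 13432 counts over 4 Y-linked genes. A difference between genotypes and one between the sexes cannot be told apart here, and Bgn is X-linked. Of the barcodes, 139 occurred in both libraries, 17 of them in the same cluster. The authors had numbered 29 clusters over all cells and 9 within the ameloblast lineage, without names. Names ending in "-like" below rest on marker lists, and a cluster without enough markers is given by its number and leading genes.

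The 8 genes lie in 4 places of the genome (GRCm38, GENCODE M21). Dcn (chr10:97479609-97518143) and Lum (chr10:97565128-97572703) are 46984 bases apart on the plus strand. Prelp (chr1:133910304-133921414, minus strand) and Fmod (chr1:134037254-134048277, plus strand) are 115839 bases apart. Aspn (chr13:49544443-49567565), Omd (chr13:49582462-49592822) and Ogn (chr13:49608046-49624501) follow each other on the plus strand with gaps of 14896 and 15223 bases. Bgn stands alone on the X chromosome (chrX:73483602-73495933, plus strand).

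The start regions of the chromosome 13 trio are shown because these close neighbours had the most unlike patterns over the clusters, and that of Bgn because its transcript was above background in the most clusters. RefSeq promoter windows on GRCm38.p6, 250 bases before to 50 bases after the start, were at hand for 6 of the 8 genes, and the 4 printed are on the plus strand. Capitals mark matches, on either strand, to the TATA box (the letters TATAAA), the E-box (the letters CANNTG) or the Sp1 motif (the letters GGGCGG), and where matches overlap the run is joined.

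Aspn (chr13:49544193-49544492): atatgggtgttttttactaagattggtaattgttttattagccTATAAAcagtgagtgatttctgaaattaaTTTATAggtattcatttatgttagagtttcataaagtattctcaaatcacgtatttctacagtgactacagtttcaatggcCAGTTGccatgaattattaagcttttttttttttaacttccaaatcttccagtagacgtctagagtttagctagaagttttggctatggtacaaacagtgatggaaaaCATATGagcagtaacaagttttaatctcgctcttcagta
Omd (chr13:49582212-49582511): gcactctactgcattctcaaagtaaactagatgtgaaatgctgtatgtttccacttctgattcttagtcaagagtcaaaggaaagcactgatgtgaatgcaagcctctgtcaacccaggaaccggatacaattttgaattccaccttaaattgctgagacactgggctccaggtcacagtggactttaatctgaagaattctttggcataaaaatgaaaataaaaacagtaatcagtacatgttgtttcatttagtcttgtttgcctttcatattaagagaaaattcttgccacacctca
Ogn (chr13:49607765-49608064): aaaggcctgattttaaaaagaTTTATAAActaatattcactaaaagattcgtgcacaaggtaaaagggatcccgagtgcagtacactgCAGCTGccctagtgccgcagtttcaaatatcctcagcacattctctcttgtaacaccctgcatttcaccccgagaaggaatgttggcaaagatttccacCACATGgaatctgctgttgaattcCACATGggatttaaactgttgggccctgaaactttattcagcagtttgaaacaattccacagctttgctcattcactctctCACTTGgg
Bgn (chrX:73483351-73483650): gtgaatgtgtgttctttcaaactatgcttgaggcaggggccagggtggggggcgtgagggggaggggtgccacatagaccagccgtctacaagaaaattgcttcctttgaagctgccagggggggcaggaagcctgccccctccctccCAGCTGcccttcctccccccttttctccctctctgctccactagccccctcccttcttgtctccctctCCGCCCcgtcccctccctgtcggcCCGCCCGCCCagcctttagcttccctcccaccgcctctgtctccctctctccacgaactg

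TATAAA was in the windows of Aspn and Ogn, and in 13.6% of all 32841 windows of the table. CANNTG was in those of Aspn, Ogn and Bgn and in 72.3% of all, and GGGCGG was found 3 times in that of Bgn and in 35.7% of all. The Omd window held none of these letters, which says only that they are not in these 300 bases. Its GC content was 37.7%, against 31.0% for Aspn, 42.3% for Ogn, 63.7% for Bgn and a median of 52.7% over all windows. A match is a description and not a site of binding.

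Free RNA from broken cells enters every droplet, so a level in a cluster was set beside that in macrophage or monocyte-like and erythroid-like cells of the same library. That these cells do not make the proteins themselves was assumed and not tested. For a gene that they do express, such as possibly Bgn, the background would include expression and be set too high. The background was the higher of the macrophage or monocyte-like cluster 4 and the erythroid-like cluster 18. For Lum, the most abundant member, it was 86.6 CPM in the mutant library and 53.5 CPM in the control library. For Bgn it was 47.2 and 26.7 CPM, for Dcn 42.7 and 17.6 CPM, and for Prelp 2.81 and 1.62 CPM, mutant before control. A level counts as above background below where its interval lay above that value. Among the cells of cluster 4, with a median of 14240.0 UMIs in the mutant library and 14473 in the control library, a UMI of Lum was in 36.6% and 33%, of Bgn in 23.9% and 14.9%, of Dcn in 17.1% and 9.16%, and of Prelp in 2.33% and 1.83%. Ogn was in 12% of these mutant and 5.91% of these control cells, Omd in 7.09% and 3.26%, and Aspn in 1.72% and 1.22%. Shallow clusters, with a median under 2000 UMIs in at least 1 library, were set beside the shallow macrophage-like cluster 1 instead.

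**Figure D1:**
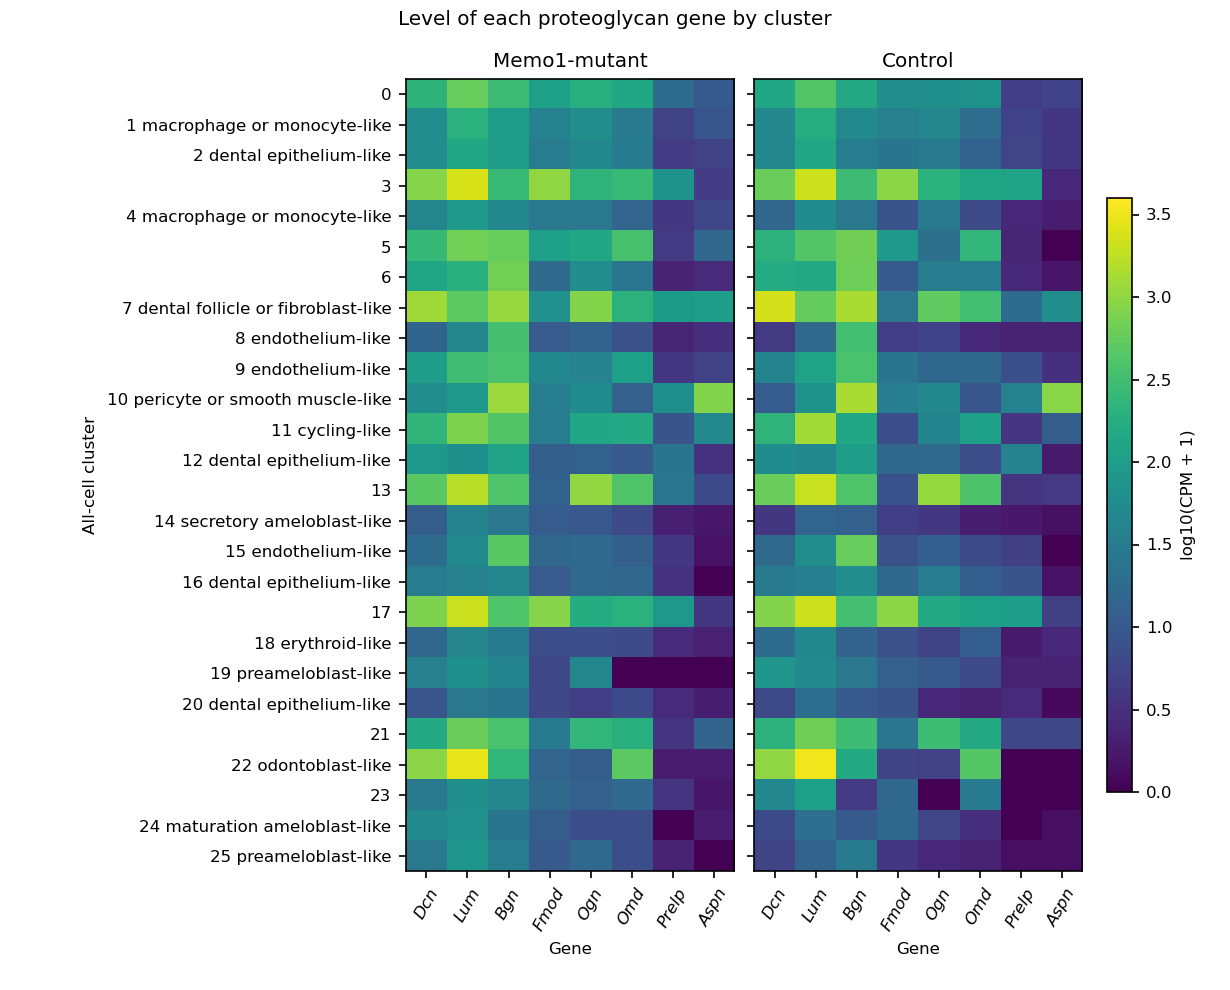
Level of each gene as log10(CPM + 1), by colour, in the 26 clusters with at least 50 cells in each library, with the Memo1-mutant library on the left and the Control library on the right. The bright rows differ between several of the genes, such as clusters 3 and 17 for Fmod, cluster 10 for Aspn and clusters 7 and 13 for Ogn, and the rows named here are bright in both panels. Dcn, Lum and Omd have bright rows in common.

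Among the class I genes, Dcn encodes decorin, which binds type I collagen and limits fibril width. It was highest in the dental follicle or fibroblast-like cluster 7, at 1229.5 CPM (1206 to 1253) in the mutant library and 2309 CPM (2220.3 to 2399.8) in the control library. The odontoblast-like cluster 22 followed at 948 CPM in the mutant and 1011 CPM in the control, with intervals that did not overlap those of cluster 7. Next in the mutant library was cluster 3, led by Fmod, Ifitm1 and Tnc, at 881 CPM (866 to 896), which just overlapped cluster 17 at 772 CPM (684 to 868), but in the control library it was at 596 CPM (577 to 615), level with the 599 CPM of cluster 13 and under the 862 CPM of cluster 17. Cluster 7 held few of the cells of either library, 770 in the mutant and 102 in the control, and in it Dcn came from part of the cells. With every cell thinned to 5000 UMIs, which left out 69 of the mutant and 15 of the control cells as too shallow, Dcn was seen in 44.4% (40.6 to 48.1) of the mutant and 70.1% (59.4 to 79.5) of the control cells of cluster 7, against 52.9% and 74.5% before thinning, and the variance of its count was 56.5 times the mean in the mutant and 26.5 times in the control. In cluster 3 that ratio was 3.77 in the mutant and 2.44 in the control, so the counts were spread more evenly there. The counting intervals do not cover this spread between cells, so the order of clusters 7 and 22 is less sure than they show.

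Bgn, for biglycan, which binds collagen and TGF-β and is needed for normal bone mass, reached the most cell types. It was above background in both libraries in 15 clusters, the most of the 8 genes. The pericyte or smooth muscle-like cluster 10 had 1155 CPM in the mutant and 1405 CPM in the control, and cluster 7 had 1111 and 1389 CPM, and the intervals of this pair overlapped in both libraries. Next came cluster 6, led by Smoc2, Thbs4 and Dlk1, with 675 CPM in the mutant and 645 CPM in the control, and cluster 5, led by Lypd1, Scube1 and Twist2, with 577 and 659 CPM, and these overlapped in the control library only. Endothelium-like cells carried it as well, at 483 CPM in the mutant and 577 CPM in the control in cluster 15, and 346 and 331 CPM in cluster 8. The same 2 endothelial clusters had Dcn at 13.4 to 18 CPM in the mutant and 3.08 to 16.5 CPM in the control, at or below its background.

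Aspn, for asporin, a class I protein with a run of aspartates that binds collagen and calcium, lay mostly in 1 cluster. The pericyte or smooth muscle-like cluster 10, where Rgs5 and Acta2 lead, held 72.5% (71.2 to 73.7) of all its counts in the mutant library and 90.1% (88.6 to 91.4) in the control library. Its level there was 830.2 CPM (804 to 858) in the mutant and 921 CPM (878 to 966) in the control. The next cluster was 7, at 99.7 CPM in the mutant and 59.4 CPM in the control, and outside clusters 7, 10 and 11 it reached at most 14.2 CPM in the mutant and 4.94 CPM in the control. With cells thinned to 5000 UMIs it was seen in 89.4% of the mutant and 93.8% of the control cells of cluster 10, against 10.8% and 9.20% of those of cluster 7. In cluster 10 thinning left out 193 of 551 mutant and 84 of 212 control cells, and before it the shares were 82.6% and 82.5%. Aspn is among the leading genes by which cluster 10 is described, so its place there is partly how that cluster is defined.

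Among the class II genes, Lum, for lumican, a keratan sulfate proteoglycan of collagen fibrils, was the most abundant of the 8 transcripts. Over all cells it made up 79256 of the 224861 counts of the 8 genes in the mutant library and 45799 of 103347 in the control library. It was highest in the odontoblast-like cluster 22, at 2909 CPM (2840.2 to 2979) in the mutant and 3289 CPM (3229.8 to 3348) in the control. Cluster 3 followed at 2407 CPM in the mutant and 2145 CPM in the control, cluster 17, led by Igf2 and Fmod, at 2063 and 2102 CPM, and cluster 13, led by Bmp3, Dkk2 and Lrrc15, at 1703 and 1967 CPM. In the control library, though not in the mutant library, the intervals of clusters 3, 17 and 13 overlapped from one to the next. In clusters 3, 13 and 22 at least 94.1% of the cells of either library had a Lum UMI at 5000 UMIs per cell.

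Fmod, for fibromodulin, which binds the same stretch of collagen as lumican, was concentrated in cluster 3. That cluster held 81.3% (80.8 to 81.9) of its counts in the mutant library and 84.4% (83.5 to 85.2) in the control library. Its level there was 989.6 CPM (974 to 1005) in the mutant and 947 CPM (923 to 971) in the control. Cluster 17, shallow at a median of 938 UMIs in the mutant and 899 in the control, had 877 and 945 CPM, with intervals that reached those of cluster 3 in both libraries. Among the other compared clusters the highest level was 108 CPM in the mutant, in the shallow cluster 0, and 87.0 CPM in the control, in cluster 5. Fmod leads clusters 3 and 17, so this contrast too is partly their definition. Neither cluster met the marker limits of a named type, and Tnc, a matrix gene of tendon and follicle, is among the leading genes of cluster 3.

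Omd, for osteomodulin or osteoadherin, a protein of mineralized matrix that binds hydroxyapatite, was found beside Lum and Dcn. The odontoblast-like cluster 22 came first, at 492 CPM in the mutant and 442 CPM in the control, and cluster 13 second, at 407 and 395 CPM, with no overlap of intervals in either library. The third was cluster 5 in the mutant, at 351 CPM (241 CPM in the control), and cluster 7 in the control, at 318 CPM (208 CPM in the mutant). Cluster 22 held Dspp, the dentin matrix gene of odontoblasts, at 423 CPM in the mutant and 57.9 CPM in the control, and Bglap, which osteoblasts share, at 5406 and 1125 CPM. Dmp1, a marker on both the odontoblast and the osteoblast list, went the other way, at 83.6 CPM in the mutant and 149 CPM in the control. Spp1, a bone matrix gene, was at 2.13 CPM in the mutant and 7.76 CPM in the control in the same cluster. The 12 odontoblast markers summed to 15386 CPM in the mutant and 9691 CPM in the control there, and the 11 osteoblast markers, some of which are shared, to 14072 and 8313 CPM, so the name odontoblast-like rests on part of its markers.

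Prelp, for prolargin, which ties basement membranes to collagen, was the scarcest member, with 2597 counts in the mutant library and 1242 in the control library. In the mutant library cluster 7 came first at 90.6 CPM, followed by cluster 17 at 83.3 CPM, with overlapping intervals, and cluster 3 at 68.9 CPM. In the control library it was highest in cluster 3 at 118 CPM, followed by cluster 17 at 98.3 CPM, again with overlap. Prelp also had a level in epithelium. The dental epithelium-like cluster 12, led by Grp, Sfrp5 and Pthlh, had 23.6 CPM (17 to 31.9) in the mutant and 38.7 CPM (33.8 to 44) in the control, against a background of 2.81 and 1.62 CPM. In the same cells Bgn was at 118 and 101 CPM, and Dcn at 80.8 and 55.8 CPM, also above background, but 1 cell held 32.6% of the mutant and 1 cell 20.1% of the control counts of Dcn. Within the ameloblast lineage the outer enamel epithelium or stellate reticulum-like cluster 1 had Prelp at 11.5 CPM in the mutant and 39.1 CPM in the control. Lineage cluster 8, which had 91 mutant and 0 control cells and is led by Dcpp2 and Ces1d, was at 34.3 CPM (23.7 to 47.9).

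Ogn, for osteoglycin or mimecan, the class III member, was highest in cluster 13 at 1037 CPM (1015 to 1059.9) in the mutant and 1063 CPM (1035 to 1092) in the control. That cluster is the one where Col1a1 stands at 8893 CPM in the mutant and 8935 CPM in the control, next to 0.369 and 1.18 CPM of Dspp. Cluster 7 came second, at 853 and 529 CPM. In the odontoblast-like cluster 22 Ogn was at 10.7 CPM in the mutant and 4.16 CPM in the control, below its background, although its chromosome neighbour Omd was at its highest there.

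**Figure D2:**
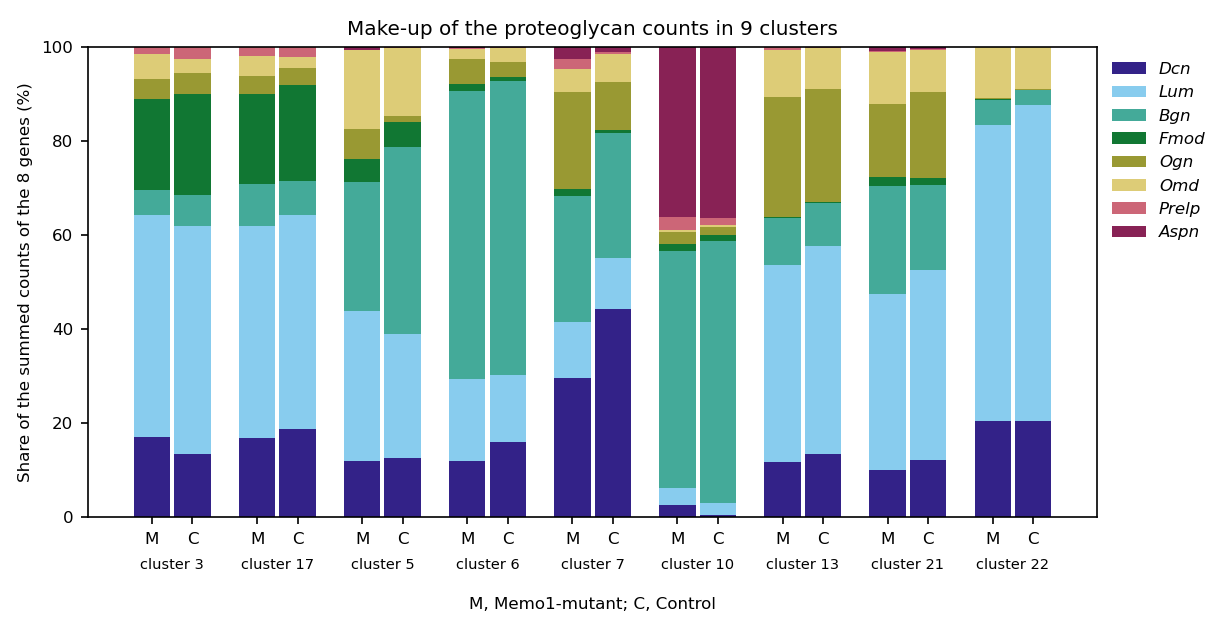
Share of each gene in the summed counts of the 8 genes, in percent, as stacked bars for 9 clusters, with Memo1-mutant (M) left of Control (C) in each pair. The bars of a pair are alike in several clusters: Lum takes 63.0% and 67.0% in cluster 22, Bgn 61.3% and 62.4% in cluster 6, and Aspn 36.2% and 36.4% in cluster 10.

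The clusters differed in their mixture of the 8 transcripts, and in clusters 6, 10, 13 and 22 the largest shares were within 6 percentage points between the libraries. Since a 3′ UMI count does not grow with transcript length, shares of counts can be set beside each other. In cluster 22, Lum made up 63.0% (62.1 to 63.9) of the summed counts in the mutant and 67.0% (66.3 to 67.7) in the control, Dcn 20.5% and 20.6%, and Omd 10.7% and 9%. In cluster 6 Bgn made up 61.3% (60.2 to 62.5) in the mutant and 62.4% (60.7 to 64.1) in the control. In cluster 10 Bgn and Aspn together took most, with Bgn at 50.4% in the mutant and 55.5% in the control, and Aspn at 36.2% and 36.4%. In cluster 13 Lum had 41.8% in the mutant and 44.3% in the control, and Ogn 25.4% and 24%. The gap was wider in cluster 7, where Dcn made up 29.6% (29.1 to 30.1) of the mutant counts and 44.4% (43.1 to 45.7) of the control counts, and Ogn 20.5% (20.1 to 21) and 10.2% (9.40 to 11). In cluster 5 Bgn made up 27.3% of the mutant and 39.9% of the control counts.

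Cells of 1 cluster differed among themselves as well. Thinned to 5000 UMIs, Bgn was found in 89.8% or more of the cells of clusters 5, 6, 7 and 10 in either library. Lum and Fmod in cluster 3 were as general, at 99% and 93.2% of the mutant cells and 98.5% and 94.9% of the control cells. Dcn in cluster 13 was patchier, at 58.3% of the mutant and 66.7% of the control cells, as was Omd there at 65.8% in both. In cluster 7, 27.7% of the mutant cells had both Dcn and Lum, against 18.2% if the genes were spread independently, and in the control cells the values were 48.3% and 37.9%. In cluster 13 Ogn and Omd were found together in 57.4% of the mutant cells, where independence gives 58.3%, and in 59.4% of the control cells, where it gives 60.6%.

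**Figure D3:**
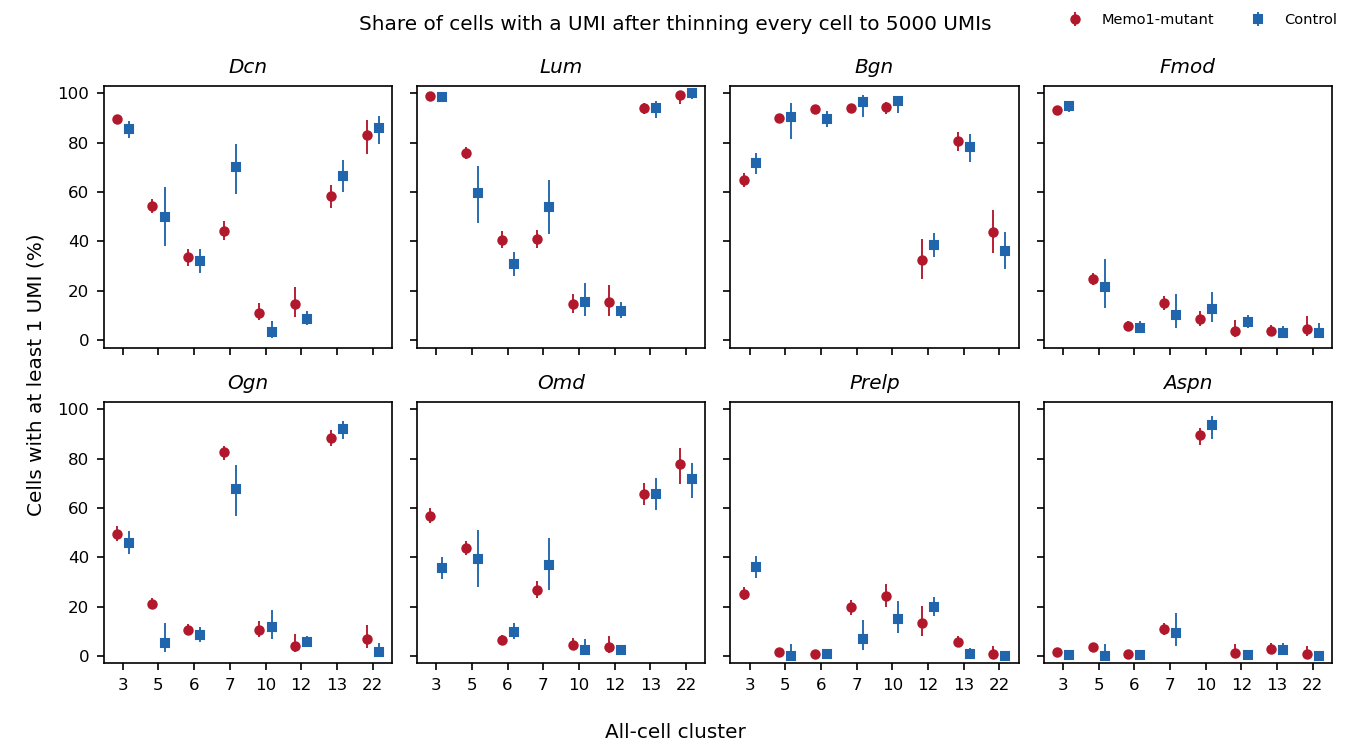
Percent of cells with at least 1 UMI of each gene after every cell was thinned to 5000 UMIs, in 8 clusters, with Memo1-mutant as red circles left of Control as blue squares and bars for the 95% Clopper-Pearson interval. Aspn is near 90% in cluster 10 alone, Bgn is high in clusters 5, 6, 7 and 10, and Prelp nowhere exceeds 35.9%.

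As a description over 55 units, each a cluster in 1 library with at least 50 cells, levels on the log2(CPM + 10) scale were compared by Pearson's r. The units share the background of their library, and those of 1 cluster share its definition. Dcn, Lum and Omd were the closest trio, with r of 0.92 for Dcn and Lum, 0.94 for Lum and Omd, and 0.91 for Dcn and Omd. Dcn and Lum are neighbours, but Omd is on another chromosome from both. Fmod and Prelp, neighbours too, had r of 0.75, and Omd and Ogn 0.69. Aspn had 0.14 with Omd and 0.35 with Ogn, although the 3 genes are side by side.

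**Figure D4:**
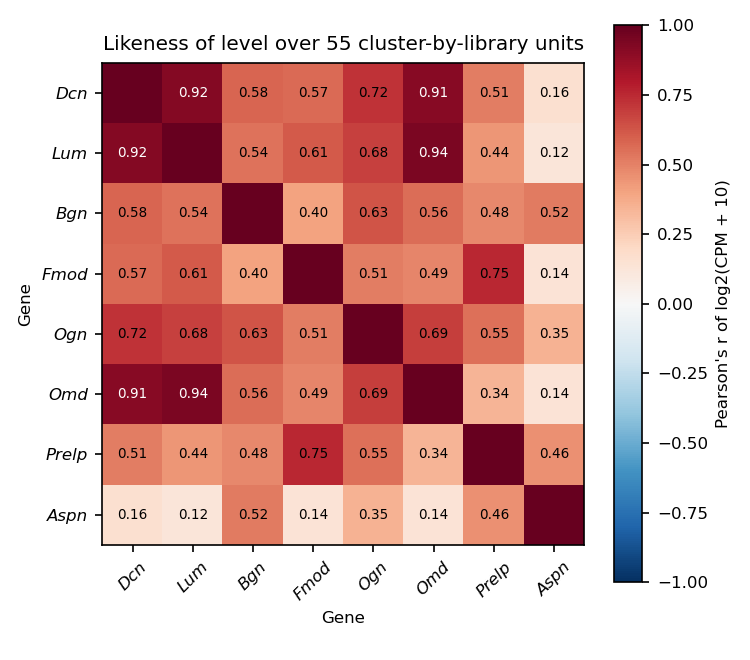
Pearson's r between the levels of each pair of genes on the log2(CPM + 10) scale, over 55 cluster-by-library units, as colour and number. The block of Dcn, Lum and Omd stands at 0.91 to 0.94, and the Aspn row is the palest, with 0.52 for Bgn as its highest value.

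Among 8008 genes the 3 most like each member were named by a fixed rank. For Lum they were Omd, Pcolce (r of 0.929), which helps to cut procollagen, and Dcn. For Dcn and Omd the first gene outside the family was Clmp, a cell adhesion gene, with r of 0.894 and 0.905. Ogn was most like collagen genes, with 0.910 for Col3a1, 0.877 for Col12a1 and 0.875 for Col6a1. Aspn was most like Foxs1 (0.944), a forkhead factor of perivascular cells, Shox2 (0.922) and Ebf2 (0.922), each highest in cluster 10. Bgn was most like Jam3 (0.927), Lix1l and Tmem47, and Fmod most like Fgfr3 (0.895), a receptor for fibroblast growth factors, Stc2 and Nr0b1. Prelp had the loosest likeness, with 0.820 for Rasl11a, 0.796 for Cntfr and 0.771 for Pde5a.

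The comparison of genotypes begins with whole libraries. All 8 transcripts took a larger share of the mutant library: summed, they were at 1860.5 CPM in the mutant and 1299.7 CPM in the control, a ratio of 1.43 (1.42 to 1.44). Lum was the closest to even, at 656 CPM in the mutant and 576 CPM in the control, a ratio of 1.14 (1.13 to 1.15), while Ogn, at 191 and 107 CPM, had a ratio of 1.78 (1.74 to 1.82). The other ratios were 1.77 for Aspn, 1.74 for Fmod and for Omd, 1.71 for Bgn, 1.5 for Dcn and 1.38 for Prelp. With TMM factors, which allow for the difference in make-up of the 2 libraries, the summed ratio was 1.29, that of Lum 1.03 and that of Ogn 1.61. The order of the genes depended on the cells kept: with stricter limits on cells Fmod was at 2.56, Prelp at 1.83, Ogn at 1.68 and Lum at 1.04, and as means over cells Fmod was at 1.41 and Ogn at 2.07. Cluster sizes moved with these values. Cluster 3 had 1136 mutant and 473 control cells, cluster 5 had 1352 and 92, and cluster 7 had 770 and 102, while the dental epithelium-like cluster 12 had 177 and 499. Cluster 5 held 10.0% of the summed counts of the 8 genes in the mutant library and 1.12% in the control library.

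Within clusters, most ratios of strongly expressed genes lay under 2-fold. Of 208 pairs of a gene and a cluster, 147 had at least 50 counts over both libraries. In 44 of these (29.9%) the mutant was at least 2-fold higher, against 3.28% of all 192287 such pairs over all genes, and in 2 (1.36%) at least 2-fold lower, against 1.62% of all. Of the 44, however, 29 were at or below background in both libraries and 8 were above it in 1 library only. Clusters 1, 4 and 18, which set the background, were among the clusters compared, so their own pairs could not lie above it. The background itself differed: in the macrophage-like cluster 4, Dcn was at 42.7 CPM in the mutant and 14.3 CPM in the control, Fmod at 26.2 and 7.56 CPM, and Aspn at 4.76 and 0.945 CPM. Free RNA and expression were not separated in those clusters. Of the 67 pairs above background in both libraries, 7 were at least 2-fold higher and 0 at least 2-fold lower.

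**Figure D5:**
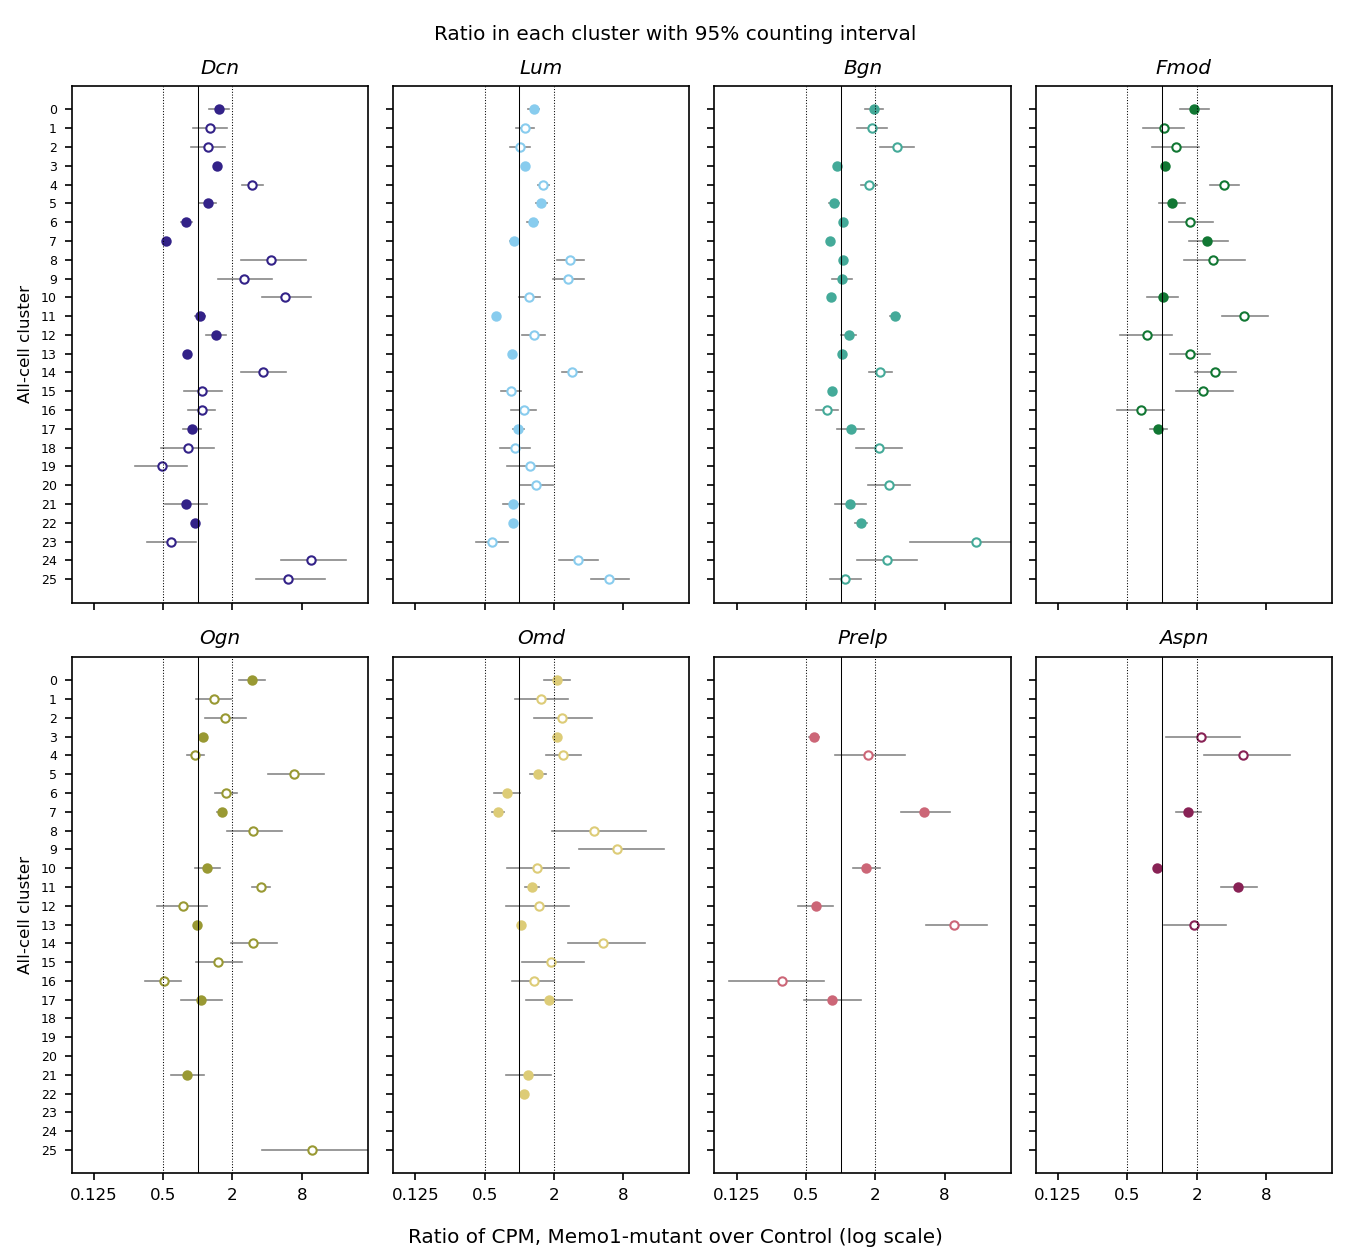
Ratio of CPM, Memo1-mutant over Control, on a log scale for each gene in each cluster with at least 50 counts, with 95% counting intervals as lines, and dotted lines at 0.5 and 2. Filled points are above background in both libraries and lie mostly between the dotted lines, while many open points, at background in at least 1 library, lie to the right. Clusters 1, 4 and 18 set the background, so their points are open by definition. Aspn in cluster 5 is not drawn because it had 0 control counts.

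In the cells where they were most abundant, several transcripts had ratios near 1, while Dcn in cluster 7, given below, did not. In cluster 3, Fmod had a ratio of 1.05 (1.01 to 1.08) and Lum 1.12 (1.10 to 1.14). In cluster 10 Aspn had 0.901 (0.851 to 0.955) and Bgn 0.823 (0.784 to 0.863), and in cluster 13 Ogn had 0.976 (0.943 to 1.01) and Omd 1.03 (0.975 to 1.09). In cluster 22 Lum had 0.885 (0.858 to 0.911), Dcn 0.938 (0.889 to 0.989) and Bgn, at 239 CPM in the mutant and 159 CPM in the control, 1.51 (1.34 to 1.70). The median log2 ratio of all genes was within 0.03 of 0 in each of these 4 clusters.

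Cluster 3 had 1 member past 2-fold above background, where 1.94% of all genes were at least 2-fold higher and 1.84% lower. Omd was at 273 CPM in the mutant and 129 CPM in the control, a ratio of 2.11 (1.96 to 2.28), and with cells thinned to 5000 UMIs it was found in 56.8% of the mutant and 35.7% of the control cells, against 77.6% and 59.0% before thinning. Dcn, at 881 and 596 CPM, had 1.48 (1.43 to 1.53). Prelp was lower, with 68.9 CPM in the mutant and 118 CPM in the control, a ratio of 0.586 (0.533 to 0.644). The Omd ratio was 1.57 with cells thinned to 1000 UMIs and 1.99 with stricter limits on cells, both under 2-fold.

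Collagens that these proteins bind were also measured in cluster 3. Of 10 measured in the list of fibrillar and beaded collagens, 2 were at least 2-fold higher, Col1a1 and Col11a1, and the median log2 ratio was 0.83 against 0.01 over all genes. Col1a1 stood at 1233 CPM in the mutant and 549 CPM in the control, a ratio of 2.24 (2.17 to 2.33), and Col3a1 at 1337 and 754 CPM, 1.77 (1.72 to 1.83). Hapln1, which locks hyaluronan to large proteoglycans, was at 131 CPM in the mutant and 53.0 CPM in the control, 2.47 (2.20 to 2.78), and Vcan, the large proteoglycan versican, at 511 and 307 CPM. Hapln1 was the 1 of 4 large proteoglycans and partners past 2-fold. Of 7 proteases of the list 1 was higher, Mmp13, on 68 mutant and 2 control counts, 13.9 (3.71 to 117), and of 7 receptors of these proteins 0 were higher or lower. Of 17 enzymes of chondroitin and dermatan chains, 0 were at least 2-fold higher and 1, Csgalnact1, was lower, with a median log2 ratio of 0.02. Of 7 enzymes of keratan sulfate chains, 0 were higher and 1, Chst1, was lower, with 47 mutant and 40 control counts and a ratio of 0.481 (0.309 to 0.752).

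The follicle or fibroblast-like cluster 7 had 2 members at least 2-fold higher, where 5.02% of all genes were higher and 1.76% lower. Prelp was at 90.6 CPM in the mutant and 17.1 CPM in the control, a ratio of 5.30 (3.37 to 8.85) that rested on 19 control counts, 31.6% of them from 1 cell. Without the cell with the most counts in each library it was 7.42, and with cells thinned to 1000 UMIs it was 2.91. Fmod was at 64.4 CPM in the mutant and 26.1 CPM in the control, 2.47 (1.70 to 3.72), on 29 control counts, and with cells thinned to 1000 UMIs it was 6.36. Dcn was the lowest against control, at 1229.5 and 2309 CPM, a ratio of 0.533 (0.510 to 0.556), followed by Omd at 208 and 318 CPM, 0.655 (0.584 to 0.736). The interval of the Dcn ratio does not cover the large spread between cells given above. Ogn was higher, at 853 CPM in the mutant and 529 CPM in the control, 1.61 (1.48 to 1.76), so that Ogn and Omd, next to each other on chromosome 13, differed in opposite directions. Aspn was at 99.7 and 59.4 CPM, 1.68 (1.31 to 2.19), with 30.3% of the control counts in 1 cell.

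The cells of cluster 7 also differed in their other markers. The 19 genes of the follicle or fibroblast list summed to 14439 CPM in the mutant and 6967 CPM in the control, with 0 genes at 0 in either. Most of both sums came from 1 gene, Sfrp2, at 11324 CPM in the mutant and 3769.9 CPM in the control. Pdgfra, of the same list, was at 173 and 186 CPM. The 12 pericyte or smooth muscle markers summed to 2365 CPM in the mutant, with none at 0, and 693 CPM in the control, with 1 at 0. The 12 odontoblast markers summed to 3272 and 6076 CPM, with 1 at 0 in the mutant and 4 in the control. Most of both sums was Col1a1, at 2892 CPM in the mutant and 5712 CPM in the control. The part of these markers in the differences was not tested. Of 10 collagens, 0 were 2-fold higher or lower, but the median log2 ratio was -0.55 against 0.05 over all genes, with Col1a1 at 2892 CPM in the mutant and 5712 CPM in the control, a ratio of 0.506 (0.492 to 0.520). Mmp13, a collagenase that also cuts fibromodulin and biglycan, was at 1148 CPM in the mutant and 456 CPM in the control, 2.52 (2.30 to 2.76), the 1 of 7 proteases past 2-fold. Of 4 large proteoglycans and partners 1 was higher, Acan, the cartilage proteoglycan aggrecan, on 235 mutant and 4 control counts, 7.76 (2.99 to 28.7). Of 7 receptors 1 was higher, Kdr, on 53 and 2 counts, 3.50 (0.923 to 29.7), with an interval that included 1. Among 18 chondroitin and dermatan enzymes 1 was higher, Chst15, and among 6 keratan sulfate enzymes 1 was lower, Chst1. Tgfb2, a TGF-β ligand, was at 99.9 CPM in the mutant and 176 CPM in the control, 0.566 (0.484 to 0.665).

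Cluster 5, with 92 control cells, gave looser values, and 4.77% of all genes there were at least 2-fold higher and 2.84% lower. Ogn was at 137 CPM (130.3 to 144) in the mutant and within 10.9 to 33.5 CPM in the control, a ratio of 6.87 (4.08 to 12.6) on 14 control counts, and the control value was not above its background of 28.0 CPM. Aspn had 151 mutant and 0 control counts. With a floor of 3 counts put in place of the 0 control counts, the ratio was 3.31, which is not a lower limit. Of the mutant counts of Aspn, 29.1% were in 1 cell. Lum, at 675 CPM in the mutant and 433 CPM in the control, had 1.56 (1.39 to 1.75), and Bgn 0.875 (0.796 to 0.964). Of 10 collagens 1, Col12a1, was at least 2-fold higher.

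Cluster 13 had 1 member past 2-fold in a background of 1.25% higher and 0.824% lower. Prelp was at 24.9 CPM in the mutant and 2.56 CPM in the control, a ratio of 9.71 (5.55 to 18.6). It was seen in 5.62% of the mutant and 0.913% of the control cells at 5000 UMIs per cell, against 10.5% and 3.12% before thinning, and only the mutant level was above background. Of its counts, 28.2% of the 202 in the mutant and 46.2% of the 13 in the control came from 1 cell. Without the cell with the most counts in each library the ratio was 12.9. The 8 erythroid markers summed to 525 CPM in the mutant and 5471 CPM in the control cells of cluster 13, with 0 genes at 0, and their part was not tested. Mmp13 was at 36.1 and 8.07 CPM in these cells, 4.47 (3.21 to 6.36), and 0 of 10 collagens were 2-fold higher or lower.

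The cycling-like cluster 11 had 4 members at least 2-fold higher, where 5.49% of all genes were higher and 1.40% lower. Its median was 2176 UMIs in the mutant and 1548 in the control, so its background was that of the shallow cluster 1. Bgn was at 418 CPM in the mutant and 142 CPM in the control, 2.95 (2.67 to 3.26), Aspn at 49.2 and 10.7 CPM, 4.61 (3.27 to 6.62), and Ogn at 143 and 40.5 CPM, 3.54 (2.95 to 4.26). Fmod, at 32.7 and 6.30 CPM, was not above background in either library. Lum was lower, at 793 CPM in the mutant and 1262 CPM in the control, 0.628 (0.598 to 0.660). This cluster gathers dividing cells of several kinds, and their markers differed too. The 12 pericyte or smooth muscle markers summed to 2776 CPM in the mutant and 589.9 CPM in the control, and the 12 dental epithelium markers to 1060.5 and 1976 CPM, with 0 at 0 in either. The 8 erythroid markers summed to 12971 CPM in the mutant, with 0 at 0, and 273 CPM in the control, with 2 at 0. Their part in the ratios was not tested. The control level of Ogn was not above background, and its ratio was 1.54 with cells thinned to 1000 UMIs, 1.68 as a mean over cells and 1.79 without the 5% of cells with the most UMIs. One cell held 54.5% of the control counts of Aspn, and without the cell with the most counts in each library its ratio was 7.70.

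Matrix genes differed with the members in cluster 11. Of 10 measured collagens 9 were at least 2-fold higher and 0 lower, with a median log2 ratio of 1.5 against 0.07 over all genes. Col1a2 was at 2264 CPM in the mutant and 552 CPM in the control, 4.10 (3.91 to 4.31), and Col3a1 at 2234 and 628 CPM, 3.56 (3.40 to 3.73). Of 7 proteases 3 were higher and 0 lower: Mmp13, at 53.6 CPM in the mutant and 1.70 CPM in the control, 31.6 (15 to 79.8) on 7 control counts, and the proteoglycan-cutting Adamts4 and Adamts5, at 4.93 (2.47 to 10.7) and 4.64 (3.21 to 6.86).

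In the pericyte or smooth muscle-like cluster 10, 1 member was past 2-fold, where 2.67% of all genes were higher and 0.660% lower. Dcn was at 59.1 CPM in the mutant and 10.3 CPM in the control, a ratio of 5.72 (3.59 to 9.66) on 19 control counts, and only the mutant value was above background. Averaged per cell in place of summed it was 1.81. Prelp, at 61.8 CPM in the mutant and 36.9 CPM in the control, had 1.67 (1.28 to 2.21). Of 11 measured collagens, 2 (Col11a1 and Col14a1) were at least 2-fold higher and 0 lower. The 9 secretory ameloblast markers summed to 1368 CPM in the mutant, with 0 at 0, and 4443 CPM in the control, with 1 at 0, which was not tested for a part in these ratios.

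Shallow cells gave further calls. In the unnamed cluster 0, led by Ldhb and Crabp1, with a median of 723 UMIs in the mutant and 801 in the control, 4.74% of all genes were at least 2-fold higher and 0.584% lower. Ogn was at 178 CPM in the mutant and 60.1 CPM in the control, 2.96 (2.28 to 3.87), and Omd at 143 and 67.3 CPM, 2.12 (1.63 to 2.77). With stricter limits on cells the ratios were 6.17 and 3.68. The Ogn call stood under 9 of 9 alternatives, at 2.41 or more. The Omd call was lost under 3 of 9, at 1.89 with TMM factors, 1.84 with median-of-ratios factors and 1.77 as a mean over cells. Of 10 collagens in cluster 0, 6 were at least 2-fold higher and 0 lower. In the shallow endothelium-like cluster 9, with 2.62% of all genes higher and 0.511% lower, Dcn, Lum and Omd were at least 2-fold higher and above background in the mutant only, with Omd at 77 and 7 counts. All 3 calls were lost with cells thinned to 1000 UMIs, where Dcn was at 1.36 in place of 2.52, Lum at 1.26 in place of 2.66 and Omd at 1.46 in place of 7.13. They were lost as means over cells too, at 1.27, 1.45 and 1.89. In the shallow preameloblast-like cluster 19, with 1.11% of all genes higher and 1.62% lower, Dcn was at 36.4 CPM in the mutant and 74.8 CPM in the control, 0.486 (0.283 to 0.807). That call was lost under 5 of 9 alternatives, among them 1.34 as a mean over cells, 0.924 after thinning and 0.653 without the cell with the most counts in each library.

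Epithelium is where the Cre driver is active. Prelp was lower in the dental epithelium-like cluster 12, with a ratio of 0.609 (0.428 to 0.850) where the median log2 ratio of all genes was 0.15. The leading genes of cluster 12 also include Ces1d and Dcpp2, which lead lineage cluster 8, with 91 mutant and 0 control cells. The cells shared by these 2 clusters were not counted, and a part of cell make-up in the ratio was not tested. In the dental epithelium-like cluster 16 Prelp was at 2.37 CPM in the mutant and 7.72 CPM in the control, 0.307 (0.107 to 0.721), on 6 and 45 counts. It was above background in the control only, and 4.99% of all genes there were at least 2-fold higher and 1.58% lower. Within the lineage, 36 of 64 pairs had enough counts. In 13 of them (36.1%) the mutant was at least 2-fold higher, against 4.11% of all genes' pairs, and in 4 (11.1%) at least 2-fold lower, against 2.84%. With TMM factors the split was 11 higher and 6 lower, and with median-of-ratios factors 10 higher and 6 lower. Of the 13, 11 were at or below background in both libraries.

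The lineage values above background were few. In lineage cluster 1, with 75 mutant and 495 control cells, Prelp was at 11.5 CPM in the mutant and 39.1 CPM in the control, a ratio of 0.294 (0.117 to 0.616) on 7 mutant counts. Of all genes in that cluster 3.68% were at least 2-fold higher and 6.34% lower. Dcn in the same cells was higher, at 173 CPM in the mutant and 54.0 CPM in the control, 3.20 (2.54 to 4), but with cells thinned to 1000 UMIs the ratio was 1.88. Of these mutant counts of Dcn 44.8% were in 1 cell. In the maturation ameloblast-like cluster 7 of the lineage Prelp and Aspn had 0 and 1 counts in the mutant and 0 and 2 in the control, and Dcn and Lum were at 50.7 and 63.6 CPM in the mutant and 4.75 and 19.9 CPM in the control, not above background in either library.

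Other genes of the family were scarce. Of 10 listed, 3 had enough counts in cluster 3, 4 in cluster 7 and 4 in cluster 13, and of these Ecm2 in cluster 13 was past 2-fold, at 5.78 CPM in the mutant and 2.36 CPM in the control. Elsewhere the calls were Chadl, for chondroadherin-like, in clusters 5 and 12 and Tsku, lower in lineage cluster 1. Chadl had 2.02 (0.770 to 7.54) in cluster 5, on 4 control counts, and 26.9 CPM in the mutant and 12.7 CPM in the control in cluster 12, 2.12 (1.44 to 3.08). Tsku, a secreted inhibitor of growth factor signals, was at 21.8 CPM in the mutant and 27.4 CPM in the control in cluster 3, a ratio of 0.795 (0.661 to 0.959). Podnl1, a class V member, was at 26.2 and 26.8 CPM in cluster 13. Ecm2, whose gene is the nearest coding neighbour of Aspn, was at 55.2 CPM in the mutant and 59.8 CPM in the control in cluster 10, 0.924 (0.735 to 1.17) there, against 16.1 and 15.9 CPM in cluster 3.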

How the data were processed

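One library of cells from 1 Memo1-mutant and one from 1 control incisor were compared. Per the submitters' processing notes, the authors used Cell Ranger (version not given), Seurat 3 and the build mm10. The deposited values are whole-number UMI counts of 19626 genes in 23528 cells, with the authors' cluster numbers. The file's cells range from 501 to 49967 UMIs, the lowest gene number is 200 and the highest mitochondrial share 30.0%. Doublets were not called here.

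For each cluster and library, counts were added up over cells and divided by the total of those cells (CPM). Ratios were formed for clusters with at least 50 cells in each library (26 of 29, and 8 of 9 in the lineage) and genes with at least 50 counts over both. They have 95% conditional intervals of 2 Poisson counts, levels have exact Poisson intervals and shares have Clopper-Pearson intervals. PCR copies are collapsed by UMI, but intervals cover counting error only. A call is a ratio of at least 2 or at most 0.5. No p-values were computed. A cluster was named where at least 3 markers of a list were 1.5-fold above the other clusters with a mean log2 fold of at least 1. In addition, at least 1 marker of the list had to be among the leading genes of the cluster. Thinning drew UMIs without replacement. The ratio and interval code was tested on simulated data.

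All 8 genes were to be named, with the 3 genes most like each in level (among those with at least 50 CPM in 1 unit) and up to 4 genes with the most counts of each of 8 related lists. List counts are given for some of the clusters, and those of 1 list are not reported here. Members and lists were chosen with earlier results of these data known, and the background of free RNA and the depth of 5000 UMIs were chosen after seeing the data. Alternatives were TMM factors (edgeR 4.0.16), median-of-ratios factors (DESeq2 1.42.0), totals without Amelx, Ambn, Enam, haemoglobin and mitochondrial genes, other limits on cells (1000 UMIs, 500 genes, 10% mitochondrial) and counts, and thinning. Software was R 4.3.3, matplotlib 3.10.9, scipy 1.17.1, pandas 2.3.3, numpy 2.4.6 and Python 3.11.15.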

Additional observations from a re-analysis of the deposited data

Results flagged for a closer look

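Dcn and Prelp were at least 2-fold higher in the mutant in some clusters and at least 2-fold lower in another. The difference between clusters was not tested. Dcn had ratios of 5.72 in the pericyte or smooth muscle-like cluster 10 and 2.52 in the shallow endothelium-like cluster 9, and of 0.486 in the shallow preameloblast-like cluster 19, each above background in 1 library only. Prelp had ratios of 5.30 in cluster 7 and 9.71 in cluster 13, and of 0.307 in the dental epithelium-like cluster 16. In cluster 13 Prelp was above background in the mutant only, and in cluster 16 in the control only. The Prelp ratios in these 3 clusters stayed past 2-fold in the same direction under every alternative that gave a value, while that of Dcn in cluster 19 did so in 4 of 9.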

How the results depend on the processing

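No paired analysis was possible because each group has 1 library. Among the pairs at least 2-fold higher (44), the count was 18 with at least 200 counts and 36 to 65 otherwise. Those at least 2-fold lower (2) numbered 1 with stricter cell limits, 6 without the 5% of cells with the most UMIs, 9 after thinning to 1000 UMIs, 4 with no minimum of counts, 0 with at least 200 counts, and 1 without cells whose barcode is in both libraries, an alternative added after seeing the data. In the lineage, the higher pairs (13) numbered 7 without the deepest 5% of cells and 3 with at least 200 counts, where the lower pairs (4) numbered 1. The whole-library ratio of the summed genes (1.43) was 1.29 with TMM and with median-of-ratios factors, 1.36 with totals without the most abundant transcripts, 1.37 with stricter cell limits, 1.47 without the 5% of cells with the most UMIs, 1.56 after thinning, 1.52 as a mean over cells and 1.41 without shared barcodes. Ratios that crossed 1 were, without the 5% of cells with the most UMIs, Dcn in cluster 14 (0.652), Fmod in cluster 15 (0.939) and Lum in lineage cluster 7 (0.877). After thinning they were Omd in cluster 8 (0.875), Lum in cluster 24 (0.413), and in the lineage Fmod in cluster 1 (1.23), Ogn in cluster 6 (0.877) and Lum in cluster 7 (0.387). As means over cells they were Dcn in cluster 19 (1.34), Lum in cluster 24 (0.692), and in the lineage Dcn in cluster 4 (1.24) and Lum in cluster 7 (0.856). The cause was not tested. The thinned values rest on 1 to 13 counts per library.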
